A study of Homo sapiens with 24 samples.

Results

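The ZNF724P binding sites described here were the 505 peaks with a score above 80 in the peak list of the ZNF724P ChIP-exo library, out of 916 deposited for it and of 31721 above that score in all libraries of the series. All 505 passed the rule and were kept, and no other filter was applied. The cells were HEK 293T, a human embryonic kidney line, transduced with a doxycycline-inducible construct for HA-tagged ZNF724P, selected with puromycin, induced with doxycycline and immunoprecipitated with an anti-HA antibody. The 14 other ChIP-exo libraries held 1 other tagged KZFP each in the same cells and served for comparison. The protein was overexpressed from a transgene in a single line, and each KZFP had 1 library, so no value below has a replicate error. The 95% intervals given are exact binomial (Clopper-Pearson) intervals over peaks or sequence copies and cover counting error only. The peak files hold no read counts, so the depth behind a score is unknown.

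KRAB zinc finger proteins (KZFPs) bind DNA through an array of C2H2 zinc fingers, each of which contacts a few neighbouring bases, and many bind repeated sequences left by transposable elements. The KRAB domain of most members recruits the corepressor KAP1 (TRIM28), which brings histone methylation and gene silencing. ChIP-exo trims the immunoprecipitated fragments with an exonuclease and so narrows the position of a bound site. The P in ZNF724P comes from an earlier listing of the gene as a pseudogene, and the annotation used here lists it as ZNF724.

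Most ZNF724P peaks lay on copies of the same sequence. A profile of the sequence under peak centres on odd-numbered chromosomes and X found 1386 copies of it in the reference genome, and 379 of the 505 peaks lay on a copy (75%, 95% interval 71 to 78.8%). On the even-numbered chromosomes, which did not enter the profile, 184 of 235 peaks lay on a copy (78.3%, 72.5 to 83.4%). The sequences that follow are shown because they carry this result: the consensus of copies with a peak around the peak centre, the same window in 5 of the strongest copies with a peak, in a copy without a peak that keeps all key bases, and in 3 copies without a peak that keep none. All are read from GRCh37 5′ to 3′ along the strand of the consensus, and capitals mark the bases aligned to 5 key positions, whatever base stands there. The copy at chr11:67423954-67424005 has no base aligned at the second key position and so shows 4 capitals.
consensus of copies with a peak: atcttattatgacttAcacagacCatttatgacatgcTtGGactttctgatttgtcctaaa
chr11:67423954-67424005, minus strand, peak score 635.47: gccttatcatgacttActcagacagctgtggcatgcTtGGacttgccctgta
chr11:67900417-67900477, minus strand, peak score 597.22: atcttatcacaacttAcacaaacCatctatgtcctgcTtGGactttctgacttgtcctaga
chr11:94549024-94549084, minus strand, peak score 559.95: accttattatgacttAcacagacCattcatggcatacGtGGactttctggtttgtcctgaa
chr9:95746472-95746532, plus strand, peak score 540.3: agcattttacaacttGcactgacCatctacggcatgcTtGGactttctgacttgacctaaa
chr11:3135630-3135693, minus strand, peak score 538.77: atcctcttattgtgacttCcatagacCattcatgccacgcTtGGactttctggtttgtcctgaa
chrX:141173140-141173203, minus strand, no peak, all key bases: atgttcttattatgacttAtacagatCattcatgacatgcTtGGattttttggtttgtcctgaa
chr10:45774049-45774109, plus strand, no peak, no key base: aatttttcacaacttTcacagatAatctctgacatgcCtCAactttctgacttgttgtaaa
chr20:38111290-38111350, minus strand, no peak, no key base: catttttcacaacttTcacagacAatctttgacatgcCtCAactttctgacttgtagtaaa
chr4:33255396-33255456, plus strand, no peak, no key base: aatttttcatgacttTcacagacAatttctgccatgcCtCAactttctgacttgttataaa

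The copies were found by sequence alone, and the repeat family they belong to is not named here because no repeat annotation was used. Many peaks also matched each other in sequence without the profile. When the whole peaks were aligned with each other, 412 of 505 (81.6%, 77.9 to 84.9%) matched at least 1 other ZNF724P peak over 100 bp or more, and chains of such matches joined 401 peaks into the largest group and 11 into the second. Part of that chaining ran through stretches next to the site, since the central 200 bp of the peaks joined 379. Some peaks of the largest group, such as that at PALB2, lay on no copy. The peaks of other libraries were not aligned in this way. The share on a copy was higher in ranges of higher score. It was 48.7% of the 76 peaks with a score from 80 to 100, 71.7% of the 152 from 100 to 150, 83% of the 176 from 150 to 250, and 86.1% of the 101 above 250. Among the 411 deposited peaks at or below 80 it was 19.5% (15.7 to 23.6%).

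**Figure D1:**
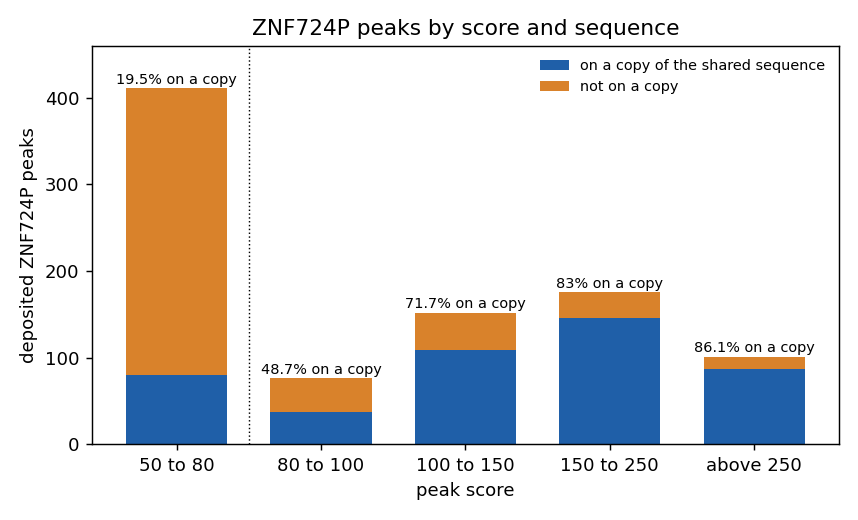
Deposited ZNF724P peaks by score range (x axis) and number of peaks (y axis), split into peaks on a copy of the shared sequence and peaks on none. The dotted line stands at the score of 80, and the share on a copy goes from 19.5% below it to 86.1% above 250.

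Peaks on copies had a median score of 173.5 (80.11 to 635.47) and a median length of 432 bp. Their DNA was AT-rich, with a median GC content of 31.2%. In the 383 copies with a peak that could be measured, the peak centre lay close to position 38 of the consensus, counted from 1 at the first base printed above. The median offset along the consensus was -10 bp, the middle 50% of offsets ran from -37 to 17 bp, and 299 (78.1%) lay within 50 bp. The profile was built from peaks whose central 200 bp matched the central 200 bp of a reference peak. Part of this closeness is therefore fixed by its construction. In the 187 copies on even-numbered chromosomes, whose peaks did not enter the profile, the median offset was -12 bp and 148 (79.1%) lay within 50 bp.

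**Figure D2:**
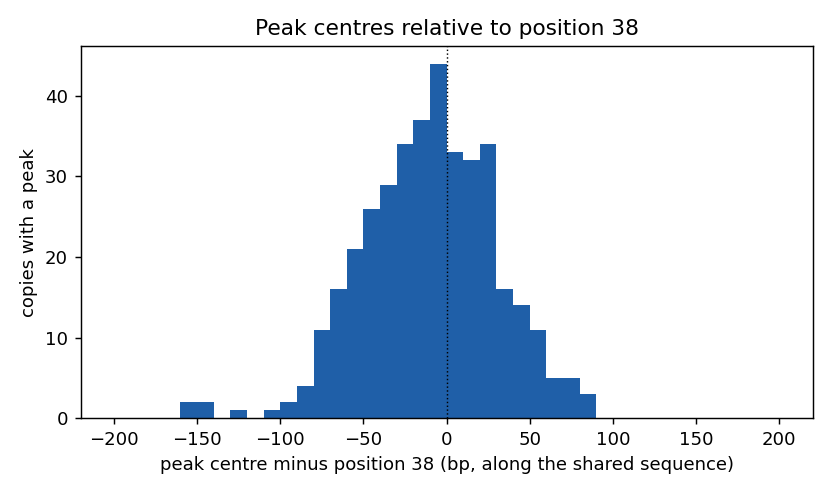
Number of copies with a peak (y axis) by the offset of the peak centre from position 38 of the shared sequence in bp (x axis, 10-bp bins, 383 copies). Offsets gather around 0, and 377 of them (98.4%) are within 100 bp.

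Most copies carried no peak. Of the 1386 copies, 390 overlapped a peak above 80 (28.1%, 25.8 to 30.6%), and 916 overlapped no deposited ZNF724P peak at all. The 1386 included 29 on chromosome Y, where the list had no peak above 80. Outside Y, 499 copies on odd-numbered chromosomes and X and 388 on even-numbered ones overlapped no deposited peak. Genome-wide counts of copies below include Y as well, and whether the cells carry a Y was not examined. The copies with a peak had a median length of 266 bp and a median profile score of 177 bits, against 219 bp and 106 bits for those without. Bits measure how well a copy fits the profile, and a copy worn down by mutation or truncation scores low. So can a copy of another version of the sequence. Even-numbered copies with none of the key bases marked above had a median of 93.9 bits. The profile was built from sequences under peaks, so part of the difference in bits is fixed by its construction. On the even-numbered chromosomes the share with a peak was 1.89% below 50 bits, 7.58% from 50 to 100, 20.1% from 100 to 150, 49.7% from 150 to 200 and 82% above 200 bits (50 of 61 copies).

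Copies with and without a peak differed in their bases at several positions. On odd-numbered chromosomes and X, 288 profile positions could be compared, and at 5 of them the consensus base was at least 30 percentage points more frequent in the 202 copies with a peak than in the 499 without a deposited one. The even-numbered chromosomes, which had no part in that choice, also differed by at least 30 points at each of the 5, and at position 56 besides, with 88.2% against 53.7% there, where odd-numbered chromosomes and X had 86.7% against 63.6%. Position 56 is not counted among the key positions. Position 16 held the consensus base in 82.9% of copies with a peak and 47.7% of those without. Position 24 held it in 80.7% against 47.9%, and position 38 in 94.1% against 63.7%. Position 40 stood furthest apart, at 79.7% against 32.9%, and position 41 followed at 82.9% against 44%. The most frequent other bases in copies without a peak were A16T, C24A, T38C, G40A and G41A, where the consensus base comes first. G41A was present in 48.2% of the even-numbered copies without a peak and in 15.5% of those with one.

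**Figure D3:**
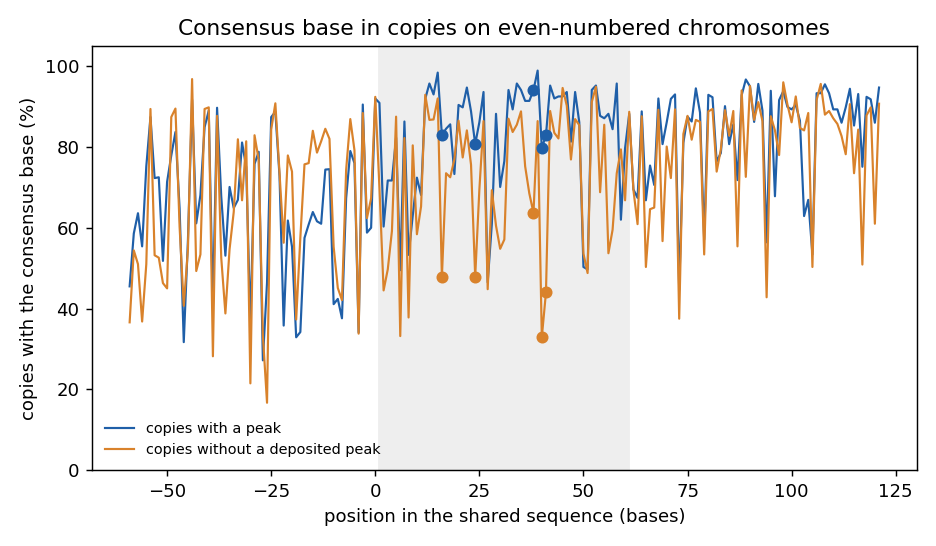
Percent of copies on even-numbered chromosomes that hold the consensus base (y axis) at each position of the shared sequence (x axis), for copies with a peak and copies without a deposited peak. Dots mark the 5 key positions and grey shading the 61 bases printed in the text. The lines part most at position 40, at 79.7% against 32.9%, and position 56, not chosen, is at 88.2% against 53.7%.

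The number of key bases ordered the copies by how often they carried a peak. On even-numbered chromosomes none of 79 copies with no key base had a peak, against 3 of 29 with 1 (10.3%), 14 of 67 with 2 (20.9%), 17 of 90 with 3 (18.9%), 61 of 147 with 4 (41.5%) and 92 of 128 with all 5 (71.9%). The step between 2 and 3 key bases was within counting error. The chromosomes on which the positions were chosen gave 0 of 113 copies with no key base and 83 of 139 with all 5 (59.7%). Over the whole genome, Y included, 200 copies held none of the key bases, and none of them overlapped even a weak deposited peak, which allows a share of up to 1.83%. Without Y the limit was 3.21% for the 113 copies on odd-numbered chromosomes and X and 4.56% for the 79 on even-numbered ones. The copies with no key base were mostly alike among themselves. On even-numbered chromosomes 92.4% of them held A16T, 87.3% C24A, 93.7% T38C, 75.9% G40C and 96.2% G41A, and 127 of the 200 held all 5 of these bases, a second version of the sequence. Because of that, a preference for the bases at these positions and a preference for the version of the repeat that carries them cannot be told apart in those copies.

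**Figure D4:**
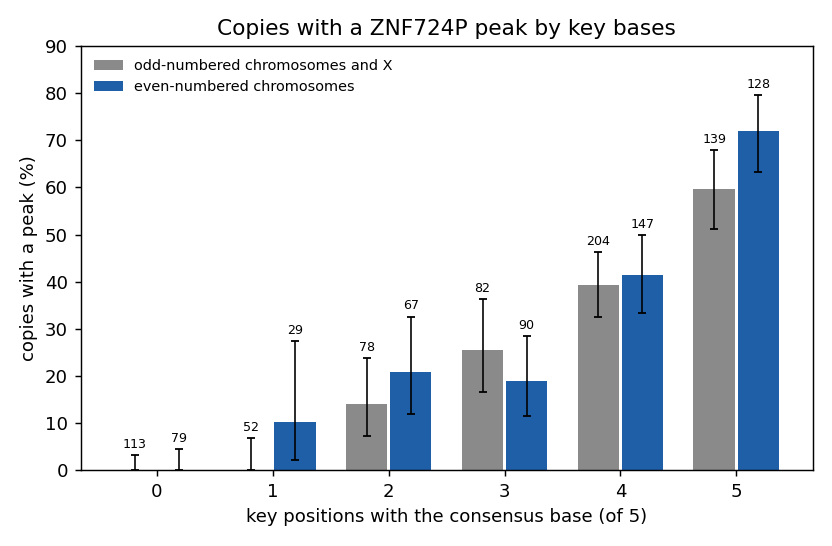
Percent of copies with a ZNF724P peak (y axis) by the number of key positions that hold the consensus base (x axis), with exact 95% intervals and the number of copies above each bar. Grey bars are the chromosomes used to choose the positions and blue bars those that were not, and both go from 0% with no key base to 59.7% and 71.9% with all 5.

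The copies that lacked a single key base did not rank the positions. On even-numbered chromosomes, against 71.9% with all 5, the share was 30.8% without position 40 alone (17 to 47.6%, 39 copies), 34.5% without position 41 (17.9 to 54.3%, 29 copies), 40% without position 38 (16.3 to 67.7%, 15 copies) and 47.7% without position 24 (32.5 to 63.3%, 44 copies). On odd-numbered chromosomes and X, against 59.7%, the order was another, with 31.5% without position 24 as the lowest, 33.3% without 38, and 40.8% and 40.7% without 40 and 41. Genome-wide the loss of 24, 38, 40 or 41 alone left 38%, 34.1%, 36.9% and 37.5% with a peak, with overlapping intervals. Copies that lacked only position 16 had a peak in 27 of 49 cases (55.1%, 40.2 to 69.3%), 60% on even-numbered chromosomes (36.1 to 80.9%) and 53.6% on odd-numbered ones and X (33.9 to 72.5%), and both of these intervals hold the value for complete copies of the same chromosomes. Within wide ranges of profile score, copies were also compared by their key bases. The ranges do not hold the fit to the profile equal, since copies with more key bases scored higher. On even-numbered chromosomes the median was 144 bits with 3 key bases, 158 with 4 and 182 with 5. The comparison therefore cannot separate the key bases from the fit. Among even-numbered copies of 150 to 200 bits, 68.8% of those with all 5 had a peak, 46.7% of those with 4 and 27.3% of those with fewer. Between 100 and 150 bits the shares were 60%, 34.1% and 8.18%. Above 200 bits they were 86.1% of 36 copies, 75% of 16 and 77.8% of 9, with overlapping intervals.

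A complete set of key bases was not sufficient for a peak, nor was it required. Genome-wide 73 copies with all 5 key bases overlapped no deposited peak, the copy on X printed above among them. Of the 73, 41 were on odd-numbered chromosomes and X and 28 on even-numbered ones, which leave out Y. The peak at chr17:77010119-77010744, with a score of 631.52 the second strongest on a copy, held 3 of the 5. Peak scores overlapped between counts of key bases. The median was 185.6 over the 175 copies with a peak and all 5 bases, 168.8 over 141 with 4, 158.7 over 38 with 3 and 126.7 over 25 with 2.

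The strongest peaks lay between genes or in introns. The highest score, 753.59, was at chr9:66970956-66971811, a peak on no copy that is described with the gap-flanking peaks. It was followed by peaks on copies at chr11:67423751-67424300 (635.47), 5550 bp from the nearest coding transcription start site (TSS), that of ACY3, an aminoacylase gene, and chr17:77010119-77010744 (631.52), 4170 bp from CANT1, a nucleotidase gene. The peak at chr11:67900111-67900732 (597.22) lay 11200 bp from CHKA, the gene of choline kinase alpha, and that at chr9:139766696-139767406 (586.60) 5936 bp from EDF1, a transcriptional coactivator gene. Introns of AMOTL1 (559.95), a Hippo pathway regulator of the angiomotin family, of FGD3 (540.30) and of OSBPL5 (538.77), a lipid transfer protein gene, held the next 3. The ninth, at chr13:50451709-50452164 (538.66), was intergenic and held all 5 key bases. The tenth, in the lncRNA intron at chr15:82017880-82018362 (534.57), lay on no copy. At the other end, the lowest 3 peaks above the threshold scored 80.11, 80.57 and 80.88, and the highest 3 not above it 79.19, 79.59 and 79.94. Of those 6, the first pair and the peak at 79.19 lay on copies.

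Few ZNF724P peaks were at promoters. Within 2500 bp of a TSS lay 47 of the 505 (9.31%, 6.92 to 12.2%), coding exons outside those windows held 4, other exons 9, introns 206 (40.8%) and intergenic DNA 239 (47.3%). Restricted to TSSs of protein-coding transcripts, the count near a TSS was 17 (3.37%). Of the 14 other ChIP-exo libraries, 12 had a larger share near a TSS, up to 70.8% in ZNF546, and 2 a smaller one, ZNF160 at 7.56% and ZNF729 at 6.98%. The median GC content of ZNF724P peaks, 33.9%, was above that of ZNF160 (32.8%) and below that of the 13 others. With 1 library each, these differences have no replicate check.

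Within genes, the copies themselves had an orientation. Of the copies with a peak, 119 of 390 lay in a protein-coding gene (30.5%, 26 to 35.3%), and 88 of the 117 with a single gene strand ran along the strand of the gene (75.2%, 66.4 to 82.7%). Copies without a deposited peak were alike in this, with 163 of 209 on the gene's strand (78%, 71.8 to 83.4%), and 23.1% of them lay in a protein-coding gene (20.4 to 26%). Near a TSS lay 4.87% of the copies with a peak (2.96 to 7.5%) and 9.5% of those without (7.68 to 11.6%), intervals that do not overlap.

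Peaks on no copy often held the core of the same site. The set had 126 peaks, of which 101 were more than 1 Mb from an assembly gap. These 101 were richer in GC (median 43.7%), lay more often in genes (76.2%) and near a TSS (25.7%, 17.6 to 35.4%) than the peaks on copies (45.1% in genes and 5.54% near a TSS), and had a median score of 121.7. The 10-base word CTTGGACTTT is positions 37 to 46 of the consensus. It was the word most concentrated at peak centres on odd-numbered chromosomes and X, where the central 100 bp of 71 of 270 peaks and none of 540 flanking windows held it on either strand. On even-numbered chromosomes it was in the central 100 bp of 70 of 235 peaks (29.8%, 24 to 36.1%), against 0.0401% of all 100-bp tiles of the genome. Positions 38, 40 and 41, inside the word, are key positions. Among the 101 peaks on no copy, 26 (25.7%) held the word exactly and 53 (52.5%, 42.3 to 62.5%) with at most 1 mismatch. The windows of equal length 2000 bp to each side of these peaks held it with at most 1 mismatch in 10 of 202 cases (4.95%, 2.4 to 8.92%) and exactly in none. On even-numbered chromosomes alone the counts were 24 of 41 peaks (58.5%) and 2 of 82 windows (2.44%). Only 2 of the 101 peaks matched the profile at a looser limit, and without them the share was the same 52.5%.

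The next lines show the word in 5 intronic peaks on no copy. They come from those with the exact word, no gap within 1 Mb and no match to the profile even at the looser limit. Each line gives the word in capitals with 20 bases to each side, 5′ to 3′, from GRCh37.
chr17:4213887-4213936, plus strand, intron of UBE2G1, peak score 436.21: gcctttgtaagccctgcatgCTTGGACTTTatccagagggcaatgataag
chr11:81135710-81135759, minus strand, intron of a lncRNA gene, peak score 164.47: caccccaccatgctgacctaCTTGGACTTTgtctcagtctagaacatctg
chr7:155449031-155449080, plus strand, intron of RBM33, peak score 143.89: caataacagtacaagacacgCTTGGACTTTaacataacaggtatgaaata
chr21:33290867-33290916, plus strand, intron of HUNK, peak score 131.77: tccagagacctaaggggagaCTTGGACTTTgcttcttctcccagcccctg
chr5:90019247-90019296, plus strand, intron of ADGRV1, peak score 121.66: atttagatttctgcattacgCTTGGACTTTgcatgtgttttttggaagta

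UBE2G1 encodes a ubiquitin-conjugating enzyme, RBM33 an RNA-binding protein, HUNK a protein kinase and ADGRV1 an adhesion G protein-coupled receptor. The 53 peaks with the site had a median score of 116.8, and the 48 without it a median of 132.8. The word lay near the middle of the peaks that held it, at a median of 24 bp from the centre over the 53 sites and within 50 bp in 44 of them (83%). The base just before the word, position 36, was A or G in 51 of 53 sites (96.2%), and the base just after it, position 47, in 44 of 53 (83%). The consensus of copies with a peak has G at position 36 but C at position 47. On even-numbered chromosomes 81.3% of copies with a peak held that C, against 5 of these 53 sites. At position 47 the sites off copies therefore differed from the copies. Position 34 was A or G in 41 of 53 (77.4%). The most common bases at positions 32 to 35 were A in 43.4% of sites, C in 41.5%, A in 50.9% and T in 49.1%, which are the bases of the consensus there. Position 46, the last of the word, took most of the allowed mismatches, with T46G in 12 sites, T46C in 5 and T46A in 3, whereas A42G occurred in 3, T38C in 1 and a change at position 40 in 3. Positions 16 and 24 are key positions on the copies and lie outside the word. Position 16 showed no preferred base here, since its most common bases stood in 26.4% of the sites. Position 24 most often held C, the consensus base, in 21 of 53 sites (39.6%), followed by A in 18. That share is near the lowest of those at positions 32 to 35, and whether it exceeds the base composition of these peaks was not tested.

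**Figure D5:**
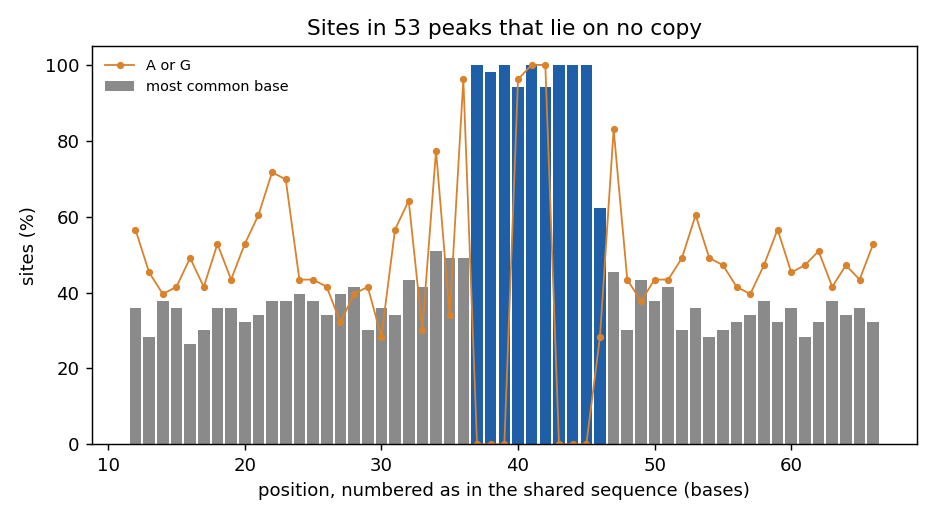
Percent of the 53 sites in peaks on no copy (y axis) that hold the most common base (bars, blue over the word) or a purine, A or G (orange line), at each position numbered as in the shared sequence (x axis). Sites were found by the word with at most 1 mismatch, which fixes the tall bars at positions 37 to 46. Outside them the purine share is highest at position 36 (96.2%), position 47 (83%) and position 34 (77.4%).

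The word alone was common in the genome without a peak. It occurred 12568 times, and 192 occurrences lay in a ZNF724P peak (1.53%). On copies 164 of 228 occurrences were in a peak (71.9%, 65.6 to 77.7%). Off copies 28 of 12340 were (0.227%, 0.151 to 0.328%). The purines on each side divided the occurrences off copies. With a purine both before and after the word, 25 of 1881 lay in a peak (1.33%, 0.862 to 1.96%), with a purine on 1 side 3 of 5662 (0.053%, 0.0109 to 0.155%), and with none 0 of 4797 (up to 0.0769%). The purine positions were noticed in the same peaks, so these counts describe them and do not test them. On copies 144 of 195 occurrences with a purine on 1 side lay in a peak (73.8%), as did 9 of 14 with both (64.3%, 35.1 to 87.2%) and 11 of 19 with neither (57.9%, 33.5 to 79.7%), and the last counts are too small to tell these shares apart.

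Few peaks of other KZFPs lay on the copies. In 11 of the 14 other ChIP-exo libraries no peak above 80 lay on a copy, as in the untagged HEK 293T control ChIP-seq library, which had 4 peaks above 80 in all. Those 11 lists ranged from 24 peaks in ZNF546 (interval up to 14.2%) to 6377 in ZNF160 (up to 0.0578%). A short list can miss the copies by its size alone, and the share expected for each list was not computed. With all deposited peaks, ZNF160 had 2 on copies and ZNF195 and ZNF34 1 each. ZFP28 had 1 peak above 80 on a copy and ZKSCAN7 1. ZNF251, the largest list with 20974 peaks, had 24 (0.114%, 0.0733 to 0.17%), and every one of the 24 overlapped a ZNF724P peak. The copies with both had 5 key bases in 15 cases, 4 in 7 and 3 in 2. At the strongest of them for ZNF251, chr13:70059694-70060693, the ZNF251 score was 957.33 and the ZNF724P score 372.10. Conversely, at the FGD3 intron the ZNF251 score was 152.13 and the ZNF724P score 540.30. The exact word was in 40 whole ZNF251 peaks (0.191%), in 3 ZNF160 peaks, 2 ZFP28 peaks, and 1 each of ZNF578 and ZNF850, against 192 ZNF724P peaks (38%, 33.8 to 42.4%).

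Across the genome 45 of the 505 ZNF724P peaks (8.91%, 6.57 to 11.7%) overlapped a peak above 80 of another ChIP-exo library. ZNF251 accounted for 40 of them, 7.92% of the ZNF724P list and 0.2% of its own list, ZNF578 for 13 (2.57% of ZNF724P peaks and 1.76% of its own) and ZKSCAN7 for 10 (1.98% and 2.97%). Of the 40 shared with ZNF251, 24 lay on copies and 13 near assembly gaps. Some peaks are in both counts, such as that in the POMK intron. The 11 peaks of the second sequence group were all within 1 Mb of a gap of at least 50 kb, such as those at centromeres, and every one overlapped another library, ZNF251 and ZNF578 in 10 each. That group held the highest score of the list (753.59) and the longest peak, 3099 bp at chr10:42397806-42400904 with a score of 503.83, and none of its members held the word with at most 1 mismatch. The part of the gaps in these scores was not tested. The peaks shared most widely were chr2:33141111-33141761 in a lncRNA intron (score 297.27, 10 other libraries), the SENP5 peak at chr3:196625613-196625957 (182.31, 9 libraries) and the chr9 peak of the highest score (8 libraries). None of the 3 lay on a copy.

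Few of all protein-coding genes had a ZNF724P peak, a share limited by the size of the list. Counted over peaks, 178 of 505 (35.2%) lay in a protein-coding gene. Of 20163 protein-coding genes, 198 had a peak in the gene or within 2500 bp of it, which is 0.982%. Of 566 zinc finger genes with ZNF, ZFP, ZKSCAN or ZSCAN symbols, 4 did (0.707%, 0.193 to 1.8%), a share near that background. They were ZNF544 (peak score 201.74), ZNF721 (189.62), ZSCAN5A (86.04) and ZNF202 (84.12), and the first 3 of these peaks lay on copies with 4, 5 and 5 key bases. No histone gene of 83 and no olfactory receptor gene of 415 had a peak, but these genes are short, with median lengths of 569 and 2076 bp against 27219 bp over all protein-coding genes, and a short gene is less likely to hold a peak. Among 66 protocadherin genes, with a median length of 107576 bp, 1 had a peak, PCDH15, an adhesion protein gene of inner ear hair cells. Around ZNF724 itself, at chr19:23404401-23433196 on the minus strand, there was no deposited peak. The strongest peaks near a coding TSS were at PALB2 (393.19), which encodes a partner of BRCA2 in DNA repair, CDK10 (338.04), a cyclin-dependent kinase gene, MKRN2 (224.07), a ubiquitin ligase gene, EIF4E (220.63), the gene of the mRNA cap-binding factor, and FYN (182.94), a Src family kinase gene. Of these 5, only the CDK10 peak, 1975 bp from the TSS and with all 5 key bases, lay on a copy, and the PALB2 peak overlapped 4 other libraries.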

How the data were processed

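Peaks came from HEK 293T cells transduced with tagged KZFPs. The authors mapped reads to hg19 with Bowtie2 and called peaks with MACS (Bowtie2 2.2.1 and MACS 1.4 in the submitters' processing notes). For ChIP-exo the control was sampled from all samples. For the ChIP-seq libraries the paper instead names the total input of each sample as the control. The deposited peak lists give a score per peak, at least 50 in all of them, and the authors kept scores above 80. The members and lists were chosen with earlier results of these data known.

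Peak sequences were read from GRCh37, of the same build as the files, and genes from GENCODE release 44 lifted to it. Peaks were aligned with BLAST+ 2.17.0 (100 bp, E below 1e-05). On odd-numbered chromosomes and X, the central 200 bp of 167 peaks matched those of a reference peak. From each, the 300 bp around the base aligned to the centre of the reference peak were taken. These were aligned with MAFFT 7.526, and the profile made from them was searched in the genome with HMMER 3.4 (E below 1e-05). This profile, the comparison of its copies and the search off copies were added after the data were seen, because the single peak first meant as the query matched 959532 places. Overlap means 1 bp. The word and overlap searches were tested on simulated data. Named peaks are the 10 highest, the 3 on each side of the threshold, the 5 highest on the largest sequence group and at coding TSSs, the 3 shared most widely, and those at zinc finger genes or ZNF724. The sequences printed from peaks on no copy are the 5 of highest score that meet the conditions given there, in introns or between genes and not on chromosome 8, and they, PCDH15 and the examples from ZNF251 were chosen after their values were seen. No p-value was computed, since each KZFP has 1 library.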

Additional observations from a re-analysis of the deposited data

How the results depend on the processing

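The number of ZNF724P peaks was 916 with all deposited peaks and 277 above a score of 150. The share within 2500 bp of a TSS was 3.96% with a window of 1000 bp and 3.37% with protein-coding transcripts only, and the share in genes was 35.2% with protein-coding genes only. Overlap with another ChIP-exo library was 13.1% with all deposited peaks of the others. The share of peaks that matched another peak in sequence was 69.1% over all deposited peaks and 90.6% above 150, and the share on a copy 50.1% and 84.1%. The leading word was in 41.7% of whole peaks on even-numbered chromosomes, in 57.4% of their centres with at most 1 mismatch, and in 9.25% of the centres of peaks with a score of 80 or less. Of the places matched by the single query peak, 0.0447% carried a peak, 0.0573% with all deposited peaks and 45.1% when matched over at least 200 bp, a rule that leaves 410 places. The share of profile copies with a peak was 33.9% with all deposited peaks, 30.9% on even-numbered chromosomes and 31% among copies that cover the key positions. Other alternatives stayed within the interval of the main value, or for counts within 1.5 times it. The share on a copy and the profile copies have alternatives chosen after the data were seen. No paired analysis was possible because each KZFP has 1 library, and no replicate could be left out. Copies were taken from the reference, so differences of HEK 293T from it were not analysed here, and neither was how well reads map to young, similar copies.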

Other observations

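Below the score of 80 the same sequence and word were still present in part of the list. Of the 411 deposited peaks at or below 80, 80 lay on a copy and 123 (29.9%, 25.5 to 34.6%) held the word with at most 1 mismatch, against 72.9% of the 505 above 80.

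The share of copies with a peak differed between chromosomes. Among chromosomes with more than 30 copies it went from 16.9% of 160 copies on X to 58.9% of 56 on chromosome 12, with 46.2% of 39 on chromosome 9 and 17.1% of 35 on chromosome 18. Chromosome X also had the densest copies of these, 10.6 per 10 Mb of assembled sequence against 4.29 on chromosome 12. Apart from Y, chromosomes with fewer copies ran from 10.5% of 19 on chromosome 15 to 47.4% of 19 on chromosome 22. None of 29 copies on Y had a peak, but whether the cells carry a Y was not examined. Copies on Y were denser than on X, at 12.6 per 10 Mb. These differences were not tested.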
